A study of Mus musculus with 8 samples.

Results

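The 9 genes described here encode receptors by which blood stem cells home to bone marrow and hold on to it: the chemokine receptor Cxcr4, the integrin chains Itga4, Itga5, Itga6, Itgal, Itgb1 and Itgb2, the hyaluronan receptor Cd44 and the selectin ligand Selplg. They were taken by name, as receptors with these roles, out of 48795 genes in the count table. All 9 were found, and all 9 passed the filter on low counts, together with 14178 genes in all. RNA was measured in LSK cells, sorted from marrow as cells without lineage markers that carry Sca-1 and c-Kit, a fraction that includes the stem cells. C57BL/6 mice had chronic myeloid leukaemia (CML), a disease of the BCR-ABL kinase, induced 10 weeks before the cells were sorted. The Sirt1-deleted group held 4 libraries from cre-positive mice, in which the deacetylase gene Sirt1 was deleted, and the control group held 4 libraries from cre-negative mice with the same leukaemia. Controls therefore lacked both the deletion and Cre, and there was no group without leukaemia. The Cre driver, the leukaemia transgene, the age of the mice and any pooling are not stated in the labels.

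Homing receptors act in sequence. Selectins on marrow vessels catch cells that carry PSGL-1, the product of Selplg, and suitably glycosylated CD44. CXCL12 made by stromal cells then signals through CXCR4, and this signal switches integrins to a binding state. Integrins are pairs of an alpha and a beta chain. The alpha 4 and beta 1 chains form VLA-4, which binds VCAM-1 and fibronectin. The alpha 5 and beta 1 chains form a fibronectin receptor, alpha 6 and beta 1 a laminin receptor, and alpha L and beta 2 form LFA-1, which binds ICAM-1. In mouse models of CML, leukaemia-initiating cells are known to use CD44 and selectin ligands to home to marrow.

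Promoter sequence was at hand for 5 of the 9 genes in the RefSeq table (GRCm38.p6). The 250 bases before the start are shown for Itgb1, the member with the smallest p below, and for Cxcr4, whose interval included 0. The Itgb1 stretch is chr8:128685404-128685653 on the plus strand and that of Cxcr4 is chr1:128592300-128592549 on the minus strand, both 5′ to 3′. Capitals mark GC boxes (GGGCGG) and TATA boxes (TATAAA) on either strand.
Itgb1: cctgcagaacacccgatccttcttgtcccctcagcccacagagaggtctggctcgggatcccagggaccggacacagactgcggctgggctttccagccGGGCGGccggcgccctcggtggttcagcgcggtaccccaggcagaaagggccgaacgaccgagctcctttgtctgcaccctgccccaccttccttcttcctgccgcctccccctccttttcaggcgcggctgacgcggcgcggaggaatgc
Cxcr4: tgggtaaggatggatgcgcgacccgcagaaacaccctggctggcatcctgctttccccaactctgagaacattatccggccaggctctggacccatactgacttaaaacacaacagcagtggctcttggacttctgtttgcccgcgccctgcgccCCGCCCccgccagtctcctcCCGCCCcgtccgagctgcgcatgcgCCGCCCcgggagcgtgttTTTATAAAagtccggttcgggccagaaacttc

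The Itgb1 stretch held 1 GC box and no TATA box. The Cxcr4 stretch held 3 GC boxes and 2 TATA matches, which overlap each other on opposite strands. GC boxes also occurred in Itga4 and Itga5 (1 and 2 matches) and not in Cd44. Of all 32851 promoters in the table, 32.7% held a GC box and 12.4% a TATA box in the same 250 bases. Neither the CCAAT box (CCAAT, in 33.8% of all promoters) nor, except for 1 match in Cd44, the hypoxia response core (ACGTG, in 16.6%) was present in these 5 stretches, searched on both strands. A match describes the letters of these windows only.

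Libraries held 18252562 to 34280925 counts in genes and 15316 to 20342 detected genes. The lowest numbers of detected genes were those of control 2 and Sirt1-deleted 1, called the 2 low-detection libraries below. Sirt1 itself had 218 to 441 counts in Sirt1-deleted libraries and 147 to 498 in controls with a log2 fold change of -0.26 ± 0.39 (SE, adjusted p = 0.797 by edgeR). Whole-gene counts do not show whether an exon is missing, so they check nothing about the deletion. LSK markers were present in both groups, with the summed level of 12 markers at 1342 to 1690 CPM in Sirt1-deleted libraries and 921 to 1666 CPM in controls, where control 1 was highest and the others were below 1342 CPM. CPM here are counts scaled to library size, with libraries made comparable by the trimmed mean of M values (TMM). Single LSK markers moved with the groups: their median log2 fold change was 1.16, against 0.06 over all genes tested. Of the 12, 9 did not overlap between the groups, against 13.1% of all genes. At an edgeR unadjusted p under 0.05, 8 were higher and 1 lower, against 7.55% and 8.6% of all genes. Kit, whose product was used for the sort, was called higher by edgeR. The 10 myeloid progenitor markers were all lower (median -1.10), 7 of them at an edgeR unadjusted p under 0.05, against 8.6% of all genes, with Ms4a3 called. They summed to 8043 to 14348 CPM in Sirt1-deleted libraries and 12420 to 25208 CPM in controls. The part of these differences in the results on the receptors was not tested. Transcripts that mark lineage-positive cells were also present, and which cells made them was not tested. The 10 mature neutrophil markers summed to 1110 to 2450 CPM in Sirt1-deleted libraries and 1734 to 4952 CPM in controls, and the 10 B and plasma cell markers to 669 to 5208 and 820 to 2303 CPM. Of the 10 marrow stromal markers, Cxcl12 had 0 to 15 counts, Lepr 0 or 1 and Bglap 0 in all 8 libraries. The list summed to 41.6 to 90.6 CPM in Sirt1-deleted libraries and 4.39 to 26.9 CPM in controls, most of it from Pdgfrb. Its 2 tested markers both had positive log2 fold changes (median 1.58, 1 at an edgeR unadjusted p under 0.05). In bulk RNA, fewer cells of a type and less RNA per cell cannot be told apart.

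Per length of exon, Selplg was by far the most abundant member and Itga4 and Itga6 the least. Selplg averaged 215 ± 46.1 CPM per kilobase in Sirt1-deleted libraries and 206 ± 27.4 in controls (SD, n = 4 each). Itgb2 followed at 51.9 ± 22.0 and 68.6 ± 22.7 CPM per kilobase in the same 2 groups, then Itgb1 at 32.5 ± 5.27 and 22.3 ± 1.52. In Sirt1-deleted libraries Itgal came next, at 22.7 ± 5.13 CPM per kilobase, and Cd44, Itga5 and Cxcr4 followed at 13.9 ± 3.11, 13.3 ± 2.68 and 11.03 ± 2.08. In controls Cxcr4, Itgal, Cd44 and Itga5 lay close together at 11.8 ± 1.92, 11.1 ± 5.34, 9.75 ± 2.11 and 9.58 ± 3.61 CPM per kilobase, with ranges that overlapped between neighbours. Itga6 was at 3.49 ± 0.255 CPM per kilobase in Sirt1-deleted libraries and 1.62 ± 0.732 in controls, and Itga4 at 2.17 ± 0.388 and 1.65 ± 0.181. The 2 genes did not overlap in Sirt1-deleted libraries and overlapped in controls. Ranges of neighbours from Itgb2 down to Cxcr4 also overlapped in Sirt1-deleted libraries, whereas Selplg was apart from the rest in both groups. The order of the first 3 was the same with the longest transcript or the coding length in place of all exons, while the order of Itga4 and Itga6 depended on the length used. By coding length Itga4 was above Itga6 in Sirt1-deleted libraries (9.78 ± 1.75 and 9.63 ± 0.703 CPM per kilobase), and by longest transcript it was below Itga6 in controls (2.37 ± 0.259 and 3.39 ± 1.53). The exons of Itga4 add up to 13978 bases, of which 8.04% overlap Cerkl on the other strand. Cerkl had 5 to 72 counts and Itga4 388 to 990, and without strand the reads of the overlap cannot be told apart.

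**Figure D1:**
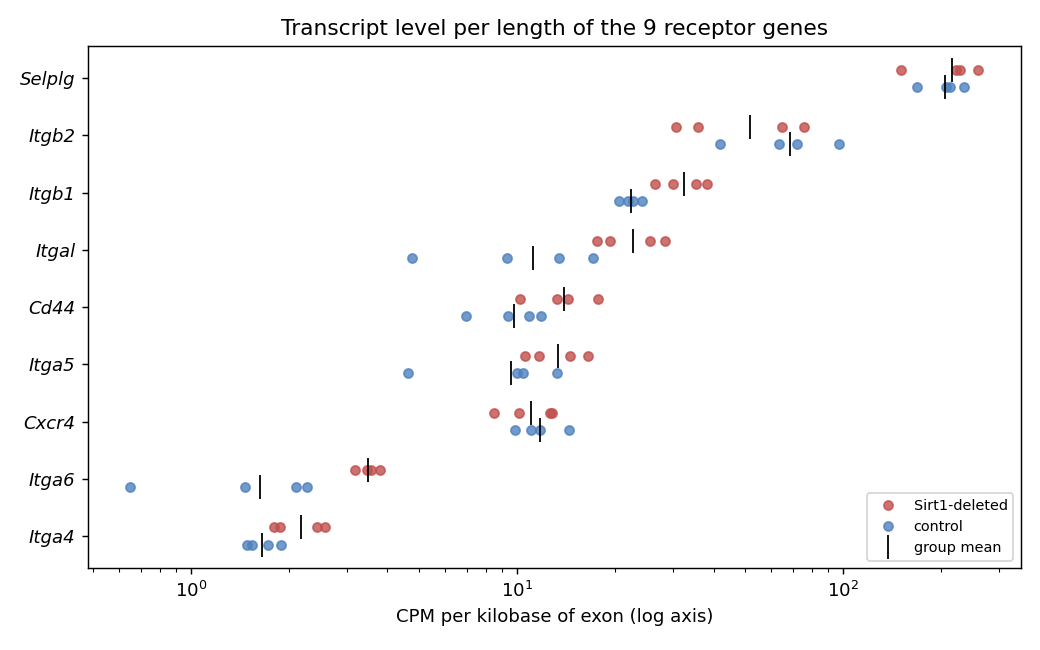
Transcript level of each receptor gene in CPM per kilobase of exon, on a log axis, with 1 point per library and a bar at the group mean. Selplg lies between 150 and 259 in all 8 libraries, above every other member, and Itga6 and Itga4 lie at the low end.

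The main question was whether loss of Sirt1 in leukaemic LSK cells went with different receptor levels. None of the 9 genes passed the test: edgeR's quasi-likelihood test called 0 members at an adjusted p under 0.05, where it called 12 of 14178 genes (0.0846%, with 0.0494% higher and 0.0353% lower). Unadjusted p was under 0.05 for 4 members, Itgb1, Itga6, Itgal and Cd44, all higher in Sirt1-deleted libraries. Over all genes that share was 16.2%, with 7.55% higher and 8.6% lower. DESeq2 called 2 members (Itgb1 and Itga6), with 8.84% of all its genes called, 4.07% higher and 4.77% lower. Limma-voom with quality weights called 3 (Itgb1, Itga6 and Itgal), with 8.03% called, 2.65% higher and 5.38% lower. For Itgb1, Itga6 and Itgal all 4 Sirt1-deleted libraries lay above all 4 controls, a separation found for 13.1% of genes tested, 6.64% with the Sirt1-deleted group higher and 6.44% with it lower. Log2 fold changes were positive for 7 of the 9, against 53.9% of all genes, with a median of 0.47 against 0.06.

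**Figure D2:**
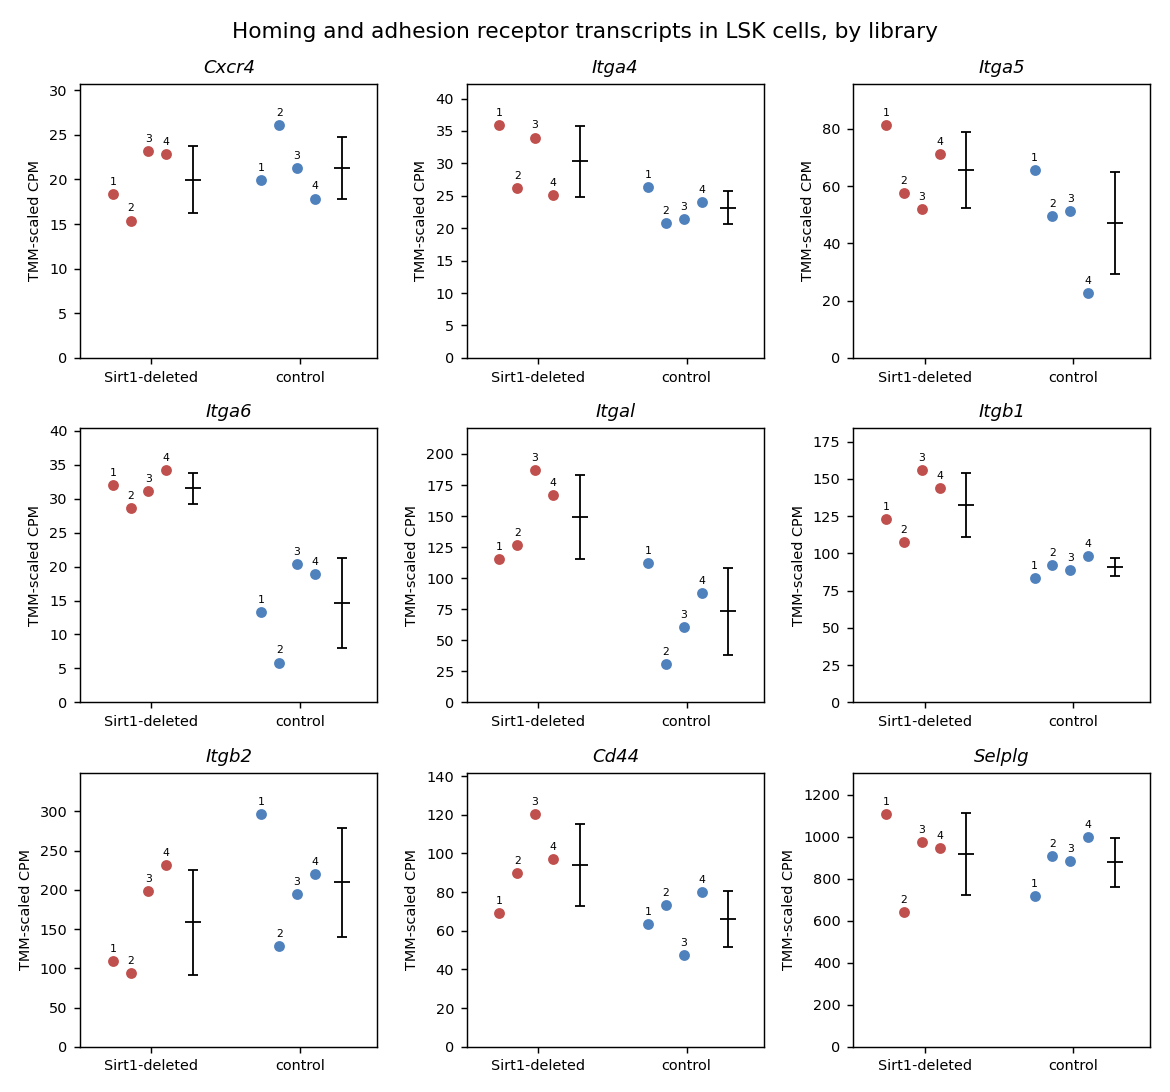
TMM-scaled CPM of each receptor gene in every library, with the library number above each point and the group mean ± SD (n = 4) as a bar beside the points. The Sirt1-deleted points lie above all controls for Itga6, Itgal and Itgb1, and the groups overlap for the other 6 genes.

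Cxcr4 (ENSMUSG00000045382.6, chromosome 1, 128588199 to 128592293, minus strand), the receptor for CXCL12, had overlapping levels in the groups. It had 18.4, 15.4, 23.2 and 22.9 CPM in Sirt1-deleted libraries 1 to 4, against 19.9, 26.0, 21.3 and 17.9 CPM in controls 1 to 4. The groups overlapped, and the highest value was a control. The log2 fold change was -0.09 ± 0.22 (SE, edgeR adjusted p = 0.878), with a 95% interval from -0.60 to 0.41. Its sign turned in 3 alternatives.

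Itgb1 (ENSMUSG00000025809.15, chromosome 8, 128685654 to 128733200, plus strand), the beta chain shared by VLA-4, VLA-5 and the alpha 6 laminin receptor, was higher in every Sirt1-deleted library without being called. It had 123, 108, 156 and 144 CPM in Sirt1-deleted libraries 1 to 4, against 83.7, 92.3, 88.9 and 98.4 CPM in controls 1 to 4. Controls were close together, with a coefficient of variation of 6.82% against 16.2% in Sirt1-deleted libraries. The ratio was 1.46-fold (log2 fold change 0.55 ± 0.14 SE, 95% interval 0.22 to 0.87, edgeR unadjusted p = 0.00423, adjusted p = 0.136). Among the alternatives, DESeq2 and limma-voom brought it under the threshold (adjusted p = 0.0109 and 0.0417).

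Itga6 (ENSMUSG00000027111.15, chromosome 2, 71745616 to 71858416, plus strand), the alpha chain of the laminin receptor and a marker of stem cells in several tissues, had the largest fold change of the 9. It had 32.0, 28.7, 31.2 and 34.2 CPM in Sirt1-deleted libraries 1 to 4, against 13.2, 5.87, 20.4 and 18.9 CPM in controls 1 to 4. Sirt1-deleted libraries were nearly equal, whereas controls were spread, with control 2 the lowest at 163 counts. The ratio was 2.16-fold (log2 fold change 1.11 ± 0.36 SE, 95% interval 0.29 to 1.93, edgeR unadjusted p = 0.0136, adjusted p = 0.187). Without control 2 the log2 fold change was 0.81, and without the 2 low-detection libraries it was 0.80 (adjusted p = 0.104). Itga6 is also made by endothelial cells and megakaryocytes. The 10 endothelial markers summed to 318 to 407 CPM in Sirt1-deleted libraries and 189 to 290 CPM in controls, most of it from Egfl7, Pecam1 and, in Sirt1-deleted libraries, Tie1. Kdr and Cdh5, also on this list, averaged 0.906 and 1.34 CPM in Sirt1-deleted libraries and 0.488 and 0.930 CPM in controls. Among the 9 endothelial markers tested, 7 were higher in Sirt1-deleted libraries and 2 were lower (median 0.79 on the log2 scale). By edgeR 4 of them, all higher, had an unadjusted p under 0.05, where 7.55% of all genes were higher at that level. For 4 the groups did not overlap, against 13.1% of all genes. The 10 megakaryocyte markers summed to 162 to 290 CPM in Sirt1-deleted libraries and 90.1 to 310 CPM in controls, where control 1, at 310 CPM, was above the Sirt1-deleted range and the other controls were below it. The 7 tested megakaryocyte markers all had positive log2 fold changes, against 53.9% of all genes (median 1.15). By edgeR 2 had an unadjusted p under 0.05, where 7.55% of all genes were higher at that level. The part of endothelial cells and megakaryocytes in the level of Itga6 was not tested.

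Itga4 (ENSMUSG00000027009.18, chromosome 2, 79255426 to 79333123, plus strand), the alpha chain of VLA-4, had 35.9, 26.2, 34.0 and 25.1 CPM in Sirt1-deleted libraries 1 to 4, against 26.3, 20.7, 21.5 and 24.0 CPM in controls 1 to 4. Libraries Sirt1-deleted 1 and 3 stood above all controls, and the other two overlapped them. The log2 fold change was 0.39 ± 0.19 (SE, 95% interval -0.05 to 0.83, edgeR adjusted p = 0.368). It was 0.21 without the 2 low-detection libraries.

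Itga5 (ENSMUSG00000000555.6, chromosome 15, 103344286 to 103366763, minus strand), the alpha chain of the fibronectin receptor VLA-5, had 81.2, 57.6, 52.1 and 71.4 CPM in Sirt1-deleted libraries 1 to 4, against 65.5, 49.4, 51.4 and 22.8 CPM in controls 1 to 4. Control 4 was less than all others, and the remaining controls lay within or just below the range of the Sirt1-deleted libraries. The log2 fold change was 0.47 ± 0.31 (SE, 95% interval -0.23 to 1.17, edgeR adjusted p = 0.510), and 0.25 without control 4.

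The chains of LFA-1 had fold changes of opposite sign, and neither was called. Itgal (ENSMUSG00000030830.18, chromosome 7, 127296260 to 127335138, plus strand), its alpha chain, had 115, 127, 187 and 167 CPM in Sirt1-deleted libraries 1 to 4, against 112, 31.2, 60.9 and 88.2 CPM in controls 1 to 4. The groups did not overlap, but control 1 was close to Sirt1-deleted 1, and control 2 was far below the rest. The ratio was 2.04-fold (log2 fold change 1.03 ± 0.36 SE, 95% interval 0.20 to 1.85, edgeR unadjusted p = 0.0201, adjusted p = 0.215). T and NK cells carry much LFA-1. Their 10 markers summed to 498 to 624 CPM in Sirt1-deleted libraries and 729 to 885 CPM in controls, with Cd3e at 16.7 ± 11.5 and 34.8 ± 4.83 CPM. All 10 had negative log2 fold changes (median -1.07). The 10 B and plasma cell markers summed to 2445, 669, 4466 and 5208 CPM in Sirt1-deleted libraries 1 to 4. Controls 1 to 4 had 2303, 820, 1182 and 1954 CPM. The part of these cells in the level of Itgal was not tested.

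Itgb2 (ENSMUSG00000000290.13, chromosome 10, 77530252 to 77565708, plus strand), the beta chain of LFA-1 and of the myeloid integrin Mac-1, had 109.5, 93.9, 198 and 232 CPM in Sirt1-deleted libraries 1 to 4, against 296, 128, 194 and 219.9 CPM in controls 1 to 4. The lowest 2 values were Sirt1-deleted libraries and the highest was control 1, with wide overlap between. The log2 fold change was -0.40 ± 0.34 (SE, 95% interval -1.18 to 0.38, edgeR adjusted p = 0.622). It was -0.22 without control 1 and -0.68 without Sirt1-deleted 4. Control 1 also had the largest sum of mature neutrophil markers, 4952 CPM, and of the 10 mast cell and basophil markers, 7962 CPM, against 433 to 1505 CPM in Sirt1-deleted libraries and 1397 to 2623 CPM in the other controls. Among Sirt1-deleted libraries the neutrophil sum was highest in library 1, at 2450 CPM, and was 1436 CPM in library 4, which had the most Itgb2. The sum of B and plasma cell markers ran from 669 CPM in Sirt1-deleted 2 to 5208 CPM in Sirt1-deleted 4, and from 820 CPM in control 2 to 2303 CPM in control 1. The part of these cells in the level of Itgb2 was not tested.

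**Figure D3:**
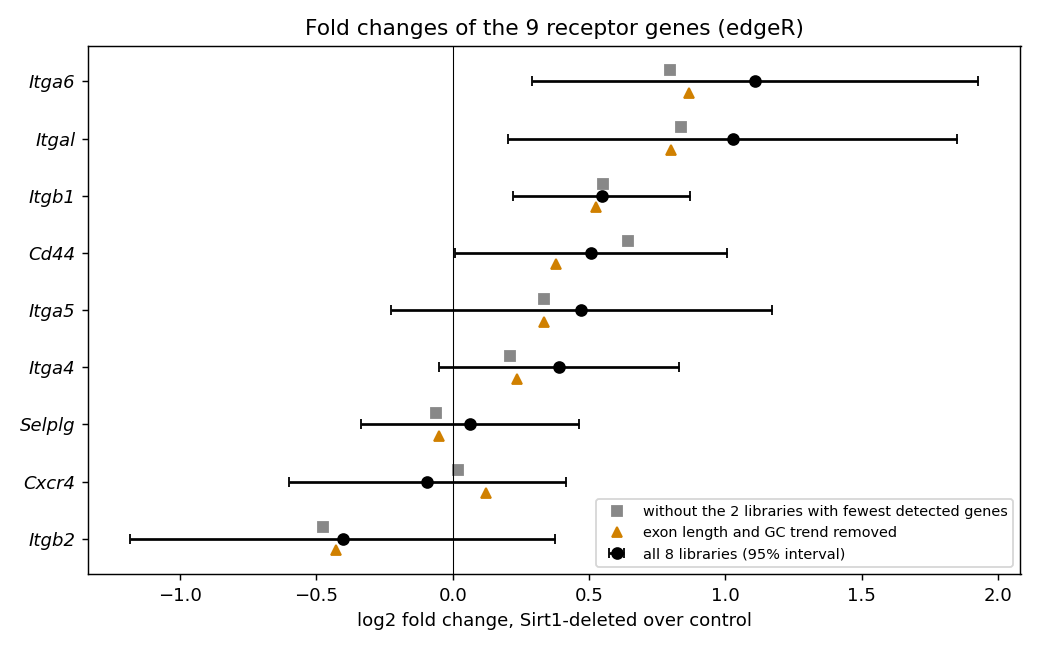
Log2 fold change of each receptor gene, Sirt1-deleted over control, with its 95% interval from edgeR on all 8 libraries. Beside it are the values without the 2 low-detection libraries and with the trend on exon length and GC content removed. The trend was removed with the TMM scaling kept, an alternative chosen after seeing the data. Itga6, Itgal, Itgb1 and Cd44 have intervals above 0, and Selplg and Cxcr4 change sign in the alternatives.

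Comparing the 2 chains of a pair within a library removes any scaling between libraries, though not the trend on exon length described below. The exons of Itgal and Itgb2 add up to 6569 and 3052 bases, and those of Itga6 and Itgb1 to 9025 and 4081. The count of Itgal was 1.05, 1.35, 0.944 and 0.721 times that of Itgb2 in Sirt1-deleted libraries 1 to 4, against 0.38, 0.243, 0.314 and 0.401 times in controls 1 to 4. All 4 Sirt1-deleted libraries were above all controls, and the ratio was 3.02-fold higher (difference in mean log2 ratio 1.59, exact two-sided permutation p = 0.0286, the smallest possible with 70 assignments, adjusted p = 0.114 over the 4 pairs compared). After adjustment the difference did not pass the threshold, while leaving out any 1 library gave 1.45 to 1.75. The ratio of Itga6 to Itgb1 was 0.261, 0.266, 0.20 and 0.238 in Sirt1-deleted libraries 1 to 4, against 0.158, 0.0636, 0.230 and 0.192 in controls 1 to 4. The groups overlapped through control 3, and the mean log2 difference was 0.72 (exact permutation p = 0.0571, adjusted p = 0.114), or 0.33 without control 2. Itga4 over Itgb1 differed by -0.16 (exact permutation p = 0.429, adjusted p = 0.571) and Itga5 over Itgb1 by 0.02 (exact permutation p = 1, adjusted p = 1), each with overlapping groups.

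**Figure D4:**
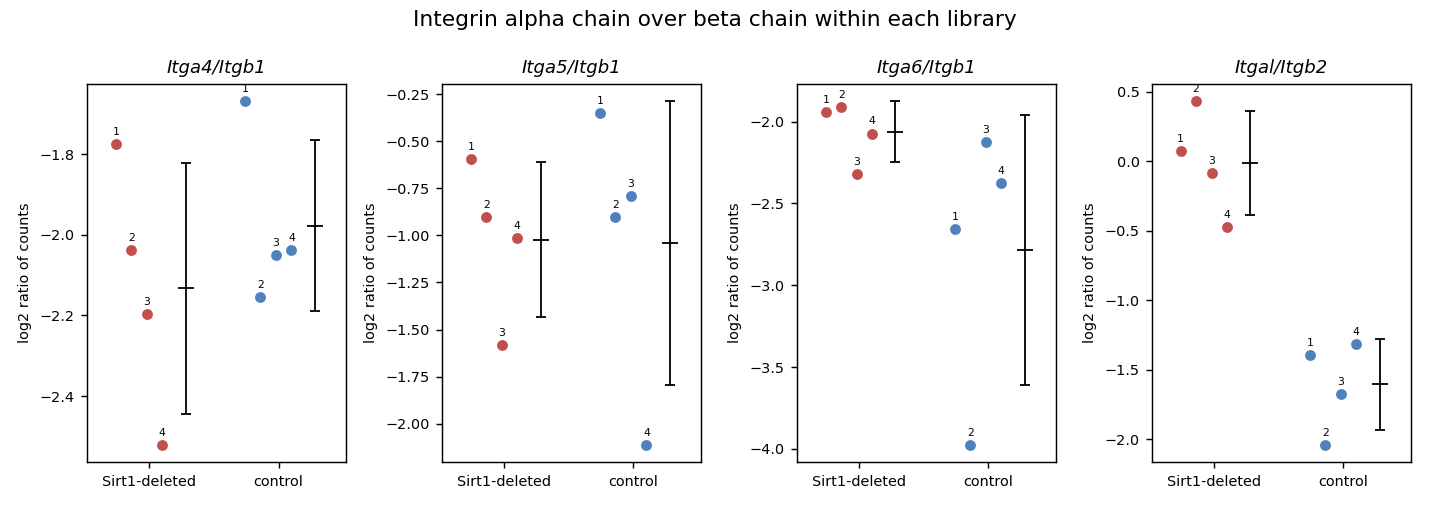
Log2 ratio of the counts of an integrin alpha chain to those of its beta chain in every library, numbered, with group mean ± SD (n = 4) as a bar. Itgal over Itgb2 lies at -0.47 to 0.43 in Sirt1-deleted libraries and -2.04 to -1.32 in controls, with no overlap, whereas the other 3 ratios overlap.

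As shares of all integrin transcripts per length, the members made up part of the repertoire. Among 8 beta chains, Itgb7, the other partner of alpha 4 and not a member, took the largest share, 64.1 ± 2.96% in Sirt1-deleted libraries and 67.4 ± 6.38% in controls (SD, n = 4 each). Itgb2 took 18.3 ± 3.25% and 22.3 ± 5.40%, and Itgb1 took 12.1 ± 1.53% and 7.42 ± 1.13% in the same 2 groups. The Itgb1 share ranged from 10.4 to 13.8% in Sirt1-deleted libraries and from 5.76 to 8.30% in controls, without overlap. Among 18 alpha chains, Itgal took 30.9 ± 6.41% and 21.6 ± 8.83%, Itga5 18.4 ± 5.47% and 19.2 ± 7.18%, Itga6 4.79 ± 0.675% and 3.47 ± 2.11%, and Itga4 3.02 ± 0.883% and 3.45 ± 0.950%, all overlapping between the groups. Itga2b, the platelet and stem cell alpha chain, took most of the rest (33.7 ± 10.0% and 39.0 ± 11.1%).

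Cd44 (ENSMUSG00000005087.17, chromosome 2, 102811141 to 102901665, minus strand), the hyaluronan receptor, had 69.2, 89.6, 120.2 and 97.1 CPM in Sirt1-deleted libraries 1 to 4, against 63.3, 73.4, 47.4 and 80.3 CPM in controls 1 to 4. Libraries Sirt1-deleted 2, 3 and 4 were above all controls, and Sirt1-deleted 1 was among them. The ratio was 1.42-fold (log2 fold change 0.51 ± 0.22 SE, 95% interval 0.01 to 1.01, edgeR unadjusted p = 0.0465, adjusted p = 0.301). A gene count does not tell the splice forms of Cd44 apart. The value was 0.34 without control 3 or without Sirt1-deleted 3.

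Selplg (ENSMUSG00000048163.13, chromosome 5, 113818536 to 113832644, minus strand), which encodes the selectin ligand PSGL-1, had 1107, 642, 977 and 946 CPM in Sirt1-deleted libraries 1 to 4, against 720.3, 909.6, 884 and 1002 CPM in controls 1 to 4. Sirt1-deleted libraries held both the highest and the lowest value. The log2 fold change was 0.06 ± 0.18 (SE, 95% interval -0.34 to 0.46, edgeR adjusted p = 0.897), and its sign turned in 6 of 19 alternatives, among them without control 1 (-0.06) and without Sirt1-deleted 1 (-0.0823).

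Related genes were described through 8 lists of ligands, other receptors and the machinery around the members. No gene of these lists was called by edgeR, out of 164 tested, while 30 (18.3%) had an unadjusted p under 0.05, against 16.2% of all genes. DESeq2 called 7 higher and 7 lower, where it called 4.07% of all genes higher and 4.77% lower. Limma-voom called 11 higher and 6 lower, where it called 2.65% of all genes higher and 5.38% lower. Limma-voom moved the median of all genes by 0.10, to 0.17. It turned the medians of 3 lists, integrin activation to 0.11, Cxcr4 signalling to 0.03 and CD44 processing to 0.39. Relative to the median of all genes these 3 lists were at -0.06, -0.14 and 0.22. Of the ligands, 7 of 14 were tested, with a median log2 fold change of 0.19, which was 0.02 without control 1 and 0.06 without Sirt1-deleted 3. Selp, the gene of P-selectin, to which PSGL-1 binds, was at 95.1 ± 32.6 CPM in Sirt1-deleted libraries and 36.2 ± 14.6 CPM in controls (log2 fold change 1.39, edgeR adjusted p = 0.138). Spp1, the gene of osteopontin, a ligand of several integrins and of CD44, was at 45.3 ± 19.0 and 101 ± 31.3 CPM (-1.15, adjusted p = 0.162) and was the ligand of highest level per length. Lama5, a laminin chain, was at 3.77 ± 2.63 and 37.9 ± 29.7 CPM (-3.32, adjusted p = 0.146). All 4 Sirt1-deleted libraries were below all controls for Spp1 and Lama5, and Selp overlapped.

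Enzymes and carriers of selectin binding had a median of 0.18 over 19 genes, with 4 at an unadjusted p under 0.05, all higher. The median was -0.06 without control 2. Fut7, the fucosyltransferase that completes selectin ligands, was at 111 ± 26.2 CPM in Sirt1-deleted libraries and 48.2 ± 12.3 CPM in controls, with no overlap (log2 fold change 1.21 ± 0.24 SE, edgeR adjusted p = 0.0950). Cd34, a sialomucin that can carry L-selectin ligands, was at 471 ± 81.1 and 262 ± 33.9 CPM (0.85, adjusted p = 0.0810), also with no overlap. Fut8, which adds core fucose, was at 102 ± 19.7 and 69.2 ± 13.7 CPM (0.55, adjusted p = 0.22). Tpst2, a tyrosine sulphotransferase and the gene of this list with the highest level per length, was at 244 ± 38.3 and 215 ± 38.7 CPM (0.18, adjusted p = 0.635).

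The signalling list around Cxcr4 had a median of -0.07 over 33 genes (-0.01 without control 4, -0.04 without Sirt1-deleted 2 and -0.12 without control 2), with 3 higher and 3 lower at an unadjusted p under 0.05. Rac2, a small GTPase of blood cells and the most abundant per length, was at 986 ± 63.4 CPM in Sirt1-deleted libraries and 1222 ± 78.0 CPM in controls, with no overlap (log2 fold change -0.31 ± 0.09 SE, edgeR adjusted p = 0.162). Its exchange factor gene Vav1 was at 384 ± 50.1 and 280 ± 44.2 CPM (0.46, adjusted p = 0.187), and the G protein beta chain gene Gnb2 at 322 ± 33.4 and 397 ± 30.4 CPM (-0.30, adjusted p = 0.216).

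The list of integrin activation and linkage had a median of -0.05 over 32 genes (-0.01 without control 4 and down to -0.14 without Sirt1-deleted 4, with about -0.11 without control 1 or Sirt1-deleted 3 and -0.12 without control 3), and its 4 genes at an unadjusted p under 0.05 were all lower. Rap1b, a small GTPase that switches integrins on, was at 156 ± 16.7 CPM in Sirt1-deleted libraries and 212 ± 17.9 CPM in controls, with no overlap (log2 fold change -0.44 ± 0.11 SE, edgeR adjusted p = 0.134). Cytip, a cytohesin partner that restrains LFA-1 adhesion, was at 78.8 ± 10.2 and 109 ± 10.0 CPM (-0.47, adjusted p = 0.162), and Rasgrp2, the exchange factor for Rap1, at 228 ± 32.8 and 288 ± 40.9 CPM (-0.34, adjusted p = 0.289). Slc3a2, the CD98 heavy chain that binds integrin tails, was the most abundant per length, at 513 ± 75.0 and 537 ± 134 CPM (-0.07, adjusted p = 0.90).

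The other integrin chains had a median of 0.25 over 15 of 20 genes tested, and none had an unadjusted p under 0.05. The median was 1.10 in limma-voom and 0.0017 to 0.75 with 1 library left out. The smallest p were those of Itgb5, at 36.8 ± 11.3 CPM in Sirt1-deleted libraries and 18.8 ± 12.8 CPM in controls (edgeR adjusted p = 0.422), Itgb7, at 488 ± 129 and 568 ± 78.7 CPM (0.648), and Itgav, at 7.55 ± 2.44 and 5.35 ± 3.37 CPM (0.695). Itgb8 had no counts.

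The other chemoattractant receptors had a median of -0.10 over 18 genes, which ranged from -0.47 without Sirt1-deleted 3 to 0.18 without Sirt1-deleted 2 and was also above 0 without control 1 or control 4. Their 3 genes at an unadjusted p under 0.05 were lower. They were the complement receptor genes C3ar1, at 3.62 ± 1.22 CPM in Sirt1-deleted libraries and 19.1 ± 18.1 CPM in controls (edgeR adjusted p = 0.137), and C5ar1, at 9.28 ± 6.77 and 36.7 ± 31.7 CPM (0.252), and the chemokine receptor gene Ccr1, at 4.54 ± 3.09 and 12.6 ± 4.38 CPM (0.277). C3ar1 and C5ar1 were highest in control 1 (46.1 and 81.7 CPM). Ccr2, a monocyte chemokine receptor, had the highest level per length, at 89.9 ± 20.0 and 119 ± 20.2 CPM (0.367).

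Other stem cell adhesion molecules had a median of 0.28 over 21 genes, and their 5 genes at an unadjusted p under 0.05 were all higher. Leaving out control 3, control 2 or Sirt1-deleted 4 gave a median of 0.14, 0.15 or 0.17. Once the trend on exon length and GC content was taken out, it was -0.11, where that of all genes was -0.20. In the fit with the TMM scaling kept, chosen after seeing the data, the list was at 0.11 and all genes at 0.04. The tetraspanin gene Tspan32 was at 278 ± 39.4 CPM in Sirt1-deleted libraries and 188 ± 7.92 CPM in controls (log2 fold change 0.56 ± 0.12 SE, edgeR adjusted p = 0.101). Esam and Pecam1, junction molecules of endothelium and stem cells, were at 34.6 ± 15.1 and 9.10 ± 3.62 CPM (1.93, adjusted p = 0.106) and at 98.3 ± 11.05 and 57.0 ± 12.8 CPM (0.79, adjusted p = 0.106). None of these 3 overlapped between the groups. Cd53, the most abundant per length, was at 252 ± 35.2 and 303 ± 106 CPM (-0.27, adjusted p = 0.634).

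Genes that process or anchor CD44 and other receptors had a median of -0.03 over 19 genes (-0.09 to 0.10 with 1 library left out, the highest without control 2), with 3 higher and 2 lower at an unadjusted p under 0.05. Adam10, a protease that sheds CD44, was at 64.1 ± 3.11 CPM in Sirt1-deleted libraries and 41.0 ± 6.41 CPM in controls, with no overlap (log2 fold change 0.65 ± 0.15 SE, edgeR adjusted p = 0.113). Adam17, which sheds L-selectin, was at 50.6 ± 13.6 and 29.4 ± 7.11 CPM (0.78, adjusted p = 0.192). Srgn, a granule proteoglycan that binds CD44 and the most abundant per length, was at 523 ± 184 and 1034 ± 507 CPM (-0.98, adjusted p = 0.223).

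**Figure D5:**
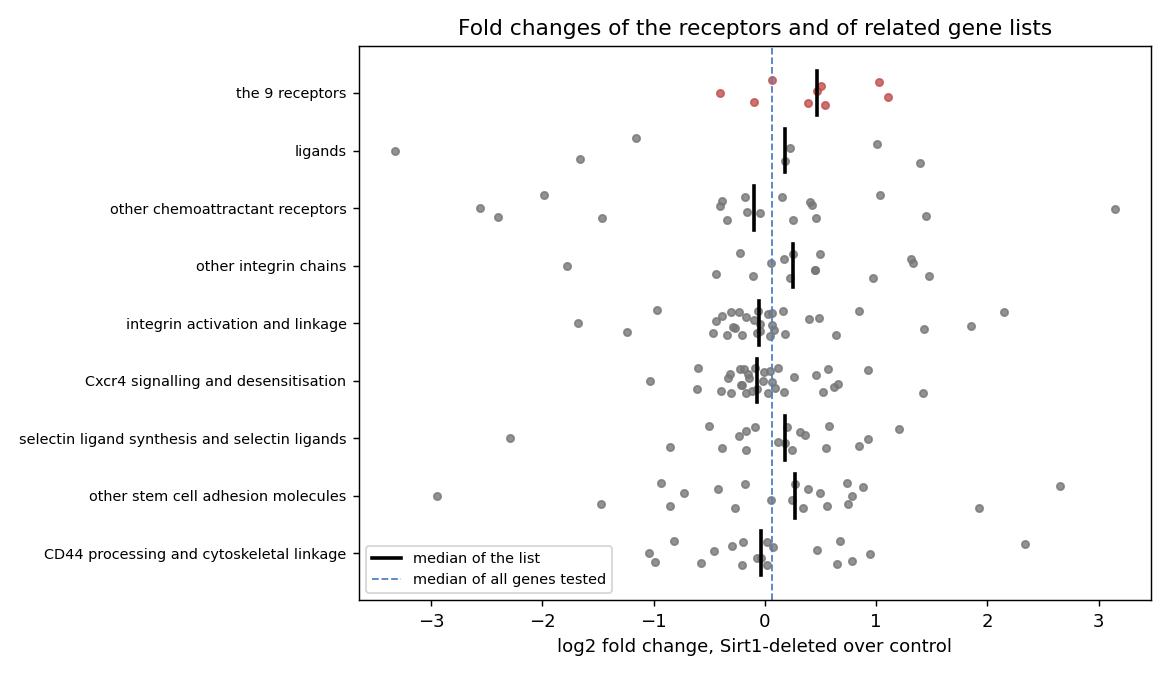
Log2 fold change, Sirt1-deleted over control, of the 9 receptor genes and of the tested genes of 8 related lists, with 1 point per gene, a black bar at the list median and a dashed line at the median of all genes tested. The medians lie between -0.10 and 0.47, and the points of every related list spread to both sides of 0.

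Likeness of profile was measured as the root mean square difference of log2 CPM, centred on each gene's mean, over the 8 libraries, among 9647 genes of at least 5 CPM. The genes nearest to Itgb1 were Patl1, Upf1 and Khsrp, at 0.0862 to 0.122. Those nearest to Itga6 were Sft2d2, Dtl and Rnf216 (0.171 to 0.184), and to Itgal Gprasp1, Usp46 and Cpd (0.182 to 0.232). Cxcr4 was nearest to Sema4d, Nadk and Gpr160 (0.0883 to 0.111), and Selplg to Strn4, Inip and Scamp2 (0.105 to 0.124). Itga4 was nearest to Smchd1, Ddx6 and Amd1 (0.0927 to 0.102), Itga5 to Nfic, Rictor and Osbpl5 (0.203 to 0.237), Cd44 to Kmt2a and Oma1 (0.131 and 0.144), and Itgb2 to Gpr183, Smim13 and Abcd3 (0.243 to 0.280). No member was among the 3 nearest genes of another.

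Long transcripts were higher relative to short ones in Sirt1-deleted libraries, and most members are long. The median log2 fold change was -0.30 for 3165 genes with under 2000 bases of exon and 0.28 for 2114 genes with 8000 or more, while the exons of the members span 1808 bases (Cxcr4) to 13978 bases (Itga4). With the trend on exon length and GC content removed, the log2 fold changes were 0.72 for Itga6, 0.63 for Itgal, 0.27 for Itgb1, 0.11 for Cd44, 0.10 for Itga5, 0.03 for Itga4 and -0.66 for Itgb2, with a median of 0.10 over the members and -0.20 over all genes. Itgb2, lower, was then the 1 member with an unadjusted p under 0.05 (edgeR, 0.0487, adjusted p = 0.391). Relative to the median of all genes, Itgb2 was at -0.458 in this fit and -0.465 in the main fit. On the same footing Itgb1 was at 0.472 and 0.484. With the trend removed and the TMM scaling kept, an alternative chosen after seeing the data, the log2 fold changes were 0.87 for Itga6, 0.80 for Itgal, 0.52 for Itgb1, 0.38 for Cd44, 0.34 for Itga5 and 0.23 for Itga4, all of the same sign as before. Itgb2 was at -0.43 in that fit (edgeR unadjusted p = 0.246). There 2 members, rather than the 4 of the main fit, had an unadjusted p under 0.05.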

How the data were processed

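Raw, whole-number read counts per Ensembl gene were deposited by the authors. Tools listed in the submitters' processing notes are HTSeq 0.9.1, STAR 2.5.3, DESeq2 1.20.0, Trim Galore 0.5.0 and bcl2fastq 2.18.0.12, with GRCm38 as the build. The annotation release and the strand setting are not stated there. Per the labels' protocols, libraries were made with the SMARTer Ultra Low Input and Nextera XT kits, which mark no strand and carry no molecular identifiers. Columns were matched to samples by title, and that of control 4 by the first part of its title. The labels give no replicate numbers, so numbers follow the order of deposit. P-values measure the spread between these libraries. The 5 rows that name no gene (33.2 to 40.6% of records, mostly reads with several alignments) were left out.

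Symbols were found for 48349 identifiers (99.1%), and coordinates and lengths are from GENCODE M21. Genes were tested with edgeR 4.0.16 in R 4.3.3 (TMM, filterByExpr, robust quasi-likelihood F test, two-sided, Benjamini-Hochberg over 14178 genes, called at adjusted p under 0.05), and checked on simulated counts. Intervals of 95% use the t distribution of the fit. Alternatives used DESeq2 1.42.0, limma 3.58.1 and mgcv 1.9.3, other scalings and filters, and left-out libraries. One, removing the length and GC trend with TMM kept, was chosen after seeing the data. Members and lists were chosen with earlier results of these data known. Named genes are all members and, per list, any called gene, the 3 of smallest p and the most abundant per length, and 3 nearest genes per member, of which 1 is not reported here. Depth ranged from 18252562 to 34280925 counts.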

Additional observations from a re-analysis of the deposited data

How the results depend on the processing

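Of the 9 members, 0 were called by edgeR under every scaling, filter, covariate or left-out library tried, and 2 and 3 by DESeq2 and limma-voom. Itgb1 was at 0.54 and 0.63 (adjusted p = 0.0109 and 0.0417) and Itga6 at 1.11 and 1.03 (0.0396 and 0.0428) in these 2 tools, and Itgal at 1.12 (0.0353) in limma-voom. Itga4, Itga5, Itga6, Itgal, Itgb1, Itgb2 and Cd44 kept their sign in all 19 alternatives. Cxcr4 turned to 0.10 in limma-voom, 0.0188 without the 2 low-detection libraries and 0.12 when the trend on length and GC was removed and TMM kept, and ranged from -0.20 to -0.02 with 1 library left out. Selplg turned to -0.0037 with upper-quartile scaling, -0.0610 without the same 2 libraries, -0.27 with the trend removed and -0.0511 with TMM kept, and ranged from -0.0823 to 0.17 with 1 library left out. The first of these trend fits moved the median of all genes by -0.26, and relative to it Selplg was at -0.07, Itga4 at 0.23 and Itga6 at 0.92. Limma-voom moved it by 0.10. Itga5 over Itgb1 turned to -0.0806 without the 2 libraries and -0.38 in the 3 Sirt1-deleted libraries whose titles start with 4 and the 3 controls whose titles start with 2 (this digit differs between the groups and cannot be told apart from genotype), and ranged from -0.34 to 0.24 with 1 library left out. The count of all genes called was 12, 81 with at least 10 counts in every library, 1315 in DESeq2, 1139 in limma-voom, 311 without the 2 libraries, 1 in those 6 libraries, 4 with TMM kept, and 0 with detected genes as a covariate or the trend removed, and 0 to 451 with 1 library left out, where 451 was without Sirt1-deleted 1. The cause was not tested. No paired analysis was possible because the labels give no replicate numbers.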
